A study of Mus musculus with 6 samples.

Results

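The thioredoxin and peroxiredoxin system was followed in RAW264.7 cells, a macrophage-like line from mouse, through the 10 genes named Txn1, Txnrd1, Srxn1, Prdx1, Prdx2, Prdx3, Prdx4, Prdx5, Prdx6 and Txnip. The members were chosen by symbol, as known parts of this system, at a time when earlier results of these data were known, and they make up 10 of the 49315 genes in the deposited table of raw counts. The cells carried the genotype given as WT and received either 4 μg/mL of SKI-II, a small molecule first described as an inhibitor of sphingosine kinases, or the same volume of DMSO, its vehicle. After 24 h, poly(A) RNA was sequenced in 3 libraries per condition. RAW264.7 is a single transformed line, so the libraries describe that line and no primary macrophage, and the labels do not say that the libraries of a group came from separate cultures. The study's methods treated the cells as for its PCR assay, which used biological replicates, and state in general that experiments were repeated independently. How the libraries of a group relate to those repeats is not stated, and if they share a culture the p-values measure technical spread only.

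Thioredoxin is a small protein whose paired cysteines reduce disulfides in other proteins, and thioredoxin reductase, a selenoprotein, restores it with electrons from NADPH. Peroxiredoxins use a reactive cysteine to destroy hydrogen peroxide, and most of them are then reduced by thioredoxin. When peroxide is plentiful that cysteine can be overoxidized to a sulfinic acid, which sulfiredoxin, the product of Srxn1, reverses in the typical 2-Cys enzymes. Txnip binds reduced thioredoxin and is known as its inhibitor, and macrophages are exposed to peroxide that they make themselves.

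The system did not move as a block. Srxn1 rose 9.04-fold with SKI-II and Prdx1 rose 4.52-fold, whereas Txnrd1 and Prdx5 rose by less than a log2 fold change of 1. Txn1, Prdx2 and Prdx3 fell, each to between 0.649 and 0.784 times its DMSO level. Prdx4, Prdx6 and Txnip did not pass the test. Of the 10 members, 7 passed edgeR's quasi-likelihood test with an adjusted p under 0.05, 4 higher and 3 lower, where 38.0% of the 12274 genes tested were called, 18.4% higher and 19.7% lower. Beyond a log2 fold change of 1 there were 2 members higher, against 8.28% of genes, and 0 lower, against 7.44%. In 7 members the normalized counts of the groups did not overlap, 4 of them higher and 3 lower, and the same was true of 50.3% of all genes tested (24.8% higher, 25.5% lower). Without DMSO replicate 2 there were 3 higher and 1 lower, without DMSO replicate 3 or SKI-II replicate 1 there were 4 and 1, and without SKI-II replicate 2 there were 4 and 0. Calls over all genes also became fewer in these fits, from 2255 higher and 2413 lower to 1507 and 1766 without DMSO replicate 2, to 2122 and 2239 without DMSO replicate 3, to 1729 and 2015 without SKI-II replicate 1, and to 1724 and 1836 without SKI-II replicate 2. Without both libraries of replicate 3, an alternative added after seeing the data, there were 4 and 2. The median log2 fold change of the members was -0.18 and that of all genes tested was 0.00, so the members' median gives no picture of Srxn1 and Prdx1.

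The libraries held between 12495957 and 20050677 counts, and the smallest raw count of a member in any library was 595. All 10 members passed the filter on low counts. Of the listed macrophage markers, 10 of 10 had counts in both groups. At least 10 counts in every library were reached by 10 of them in DMSO and by 9 in SKI-II. The summed level of the 10 markers was 18957 to 25734 TPM (a level per length, scaled within each library) in DMSO. In SKI-II it was 10405 to 15411 TPM. Lyz2 was the largest part of that sum in every library, with means of 16960 TPM in DMSO and 7053 TPM in SKI-II. Adgre1 (198 to 103.4 TPM) and Itgam (57.4 to 29.53 TPM) also had lower means with SKI-II. Cd14 (924.5 to 2408 TPM) and Fcgr1 (72.96 to 323.9 TPM) had higher ones. At an adjusted p under 0.05 in the same test, 2 markers were higher and 4 lower. In bulk RNA, fewer cells of a type and less RNA per cell cannot be told apart. All 5 epithelial markers were at 0, and the summed fibroblast, T cell, B cell and erythroid markers stayed at or below 0.672 TPM in every library. Markers at 0 in every library included Hba-a2, Hbb-bs, Hbb-bt, Ms4a1, Cd3g, Cd8a and Lum. Mitochondrial transcripts took 1.07% to 1.25% of the counts in DMSO and 1.38% to 1.71% in SKI-II. The part of either shift in the results was not tested.

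The genes that control this system are often described through short promoter elements, so the promoters of the 3 members that held an antioxidant response element core, and that of Txnip, are shown here. RefSeq gave promoter windows (GRCm38.p6, from 250 bases before the transcript start to 50 after it) for 9 of the 10 members, with 3 windows for Txnrd1 and 11 in all. Prdx6 had no window in the promoter set used here. The antioxidant response element, the site bound by Nrf2 with small Maf proteins, was searched on both strands as TGACNNNGC and as TGAGNNNGC. Capitals mark these matches, and in Txnip they mark the one match to a loose spelling of the carbohydrate response element, CACGNG and CNCGNG with 5 bases between. The TGAGNNNGC spelling and the loose carbohydrate spelling were chosen after the sequences were seen. Each stretch starts 250 bases before the RefSeq start, is read 5′ to 3′ on the plus strand, which is the strand of all 4 genes, and stops before the next base that is in an exon of the gene in GENCODE M21.
Srxn1 at chr2:152105274-152105515: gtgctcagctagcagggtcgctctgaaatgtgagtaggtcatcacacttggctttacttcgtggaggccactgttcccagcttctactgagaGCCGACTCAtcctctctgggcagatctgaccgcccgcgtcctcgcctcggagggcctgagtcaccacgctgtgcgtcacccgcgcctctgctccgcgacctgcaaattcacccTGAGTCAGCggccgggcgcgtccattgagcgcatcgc
Prdx1 at chr4:116685349-116685543: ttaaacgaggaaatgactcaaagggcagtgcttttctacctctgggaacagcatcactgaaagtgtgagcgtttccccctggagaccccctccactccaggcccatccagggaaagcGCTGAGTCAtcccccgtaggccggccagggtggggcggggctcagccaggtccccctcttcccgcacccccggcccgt
Txnrd1, window 2, at chr10:82858956-82859178: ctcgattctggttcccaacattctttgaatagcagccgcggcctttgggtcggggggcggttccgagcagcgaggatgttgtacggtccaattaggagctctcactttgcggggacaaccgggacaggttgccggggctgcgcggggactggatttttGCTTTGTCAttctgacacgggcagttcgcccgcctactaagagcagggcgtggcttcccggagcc
Txnip at chr3:96557707-96557956: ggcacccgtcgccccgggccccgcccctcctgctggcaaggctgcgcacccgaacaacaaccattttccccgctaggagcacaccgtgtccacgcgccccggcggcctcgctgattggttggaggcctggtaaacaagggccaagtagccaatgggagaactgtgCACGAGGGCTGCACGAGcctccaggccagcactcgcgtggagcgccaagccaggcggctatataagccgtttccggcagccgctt

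In Srxn1 the marked letters lay at -158 to -150 and at -45 to -37 from the RefSeq start, and a further TGACNNNGC lay at 29 to 37 after it. In Prdx1 they lay at -133 to -125, with a TGAGNNNGC at 16 to 24 after the start. In Txnrd1 they lay at -92 to -84, in 1 of its 3 windows. These 3 genes rose, but so did Prdx5, whose window held neither spelling. Neither spelling was found in the windows of Txn1, Prdx2, Prdx3, Prdx4 and Txnip. One of the spellings or both occurred in 27.8% of the 32851 RefSeq windows and in 3 of the members' 11 windows. TGACNNNGC alone occurred in 12.4% of windows and in the same 3 of the members' windows, and TGAGNNNGC alone in 17.6% and in 2 of them. The AP-1 spelling TGANTCA, which occurred in 7.81% of windows, was found in Srxn1 and Prdx1, and it shared letters with the marked sites at -45 in Srxn1 and at -131 in Prdx1. Elsewhere it lay at -102 to -96 in Srxn1 and at -237 to -231 in Prdx1. The E-box CACGTG, found in 7.15% of windows, was found in Prdx4 at -52 to -47. The loose carbohydrate spelling was found in 120 windows, 0.365% of all, and in Txnip it lay at -85 to -69. The strict form, a pair of CACGTG with 5 bases between, was found in 0 windows. A match describes letters only, and binding was not measured here.

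Txn1 (ENSMUSG00000028367, chr4:57943373-57956411 on the minus strand of GRCm38) encodes cytosolic thioredoxin, the electron donor of the system. Its normalized counts were 4693, 4448 and 4953 in DMSO against 3715, 4039 and 3290 with SKI-II. Every SKI-II library lay below every DMSO library. The mean went from 4698 ± 253 to 3681 ± 376 (SD, n = 3 libraries per group throughout), a log2 fold change of -0.35 with a standard error of 0.12 and an adjusted p of 0.0474 in edgeR's quasi-likelihood test. This call sat at the threshold. It was lost when any one of the 6 libraries was left out, with log2 fold changes of -0.42 to -0.28 and adjusted p of 0.0609 to 0.146. It was also lost with the other size factors, RLE (adjusted p of 0.0511), and without the filter on low counts (0.0914). Without both libraries of replicate 3, an alternative added after seeing the data, the log2 fold change was -0.24 (0.222).

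Txnrd1 (ENSMUSG00000020250, chr10:82833951-82897712 on the plus strand) encodes the cytosolic thioredoxin reductase, which returns thioredoxin to its reduced form. It had 6292, 6895 and 6571 normalized counts in DMSO against 10481, 10174 and 9430 with SKI-II. The groups lay far apart and each was tight. The means were 6586 ± 302 and 10028 ± 541, which gave a log2 fold change of 0.61 with a 95% interval of 0.33 to 0.88 and an adjusted p of 0.0037. Reductase and thioredoxin thus moved in opposite directions. The log2 ratio of Txnrd1 to Txn1, taken per kilobase of exon within each library, was -2.33, -2.12 and -2.35 in DMSO against -1.26, -1.42 and -1.23 with SKI-II. It was higher in each SKI-II library than in any DMSO library, by 0.96 on the log2 scale between the means. The exact two-sided permutation test gave p = 0.1 (0.15 after adjustment over 3 ratios), and 0.1 is the smallest p that 3 libraries against 3 allow.

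Txnip (ENSMUSG00000038393, chr3:96557957-96561883 on the plus strand), an arrestin-domain protein that binds thioredoxin and also lowers glucose uptake, varied most in DMSO. It had 7019, 7125 and 18946 normalized counts in DMSO against 4642, 6333 and 10713 with SKI-II. In both groups the library of replicate 3 was the highest, at 2.70 times the lowest in DMSO and 2.31 times in SKI-II, and the groups overlapped. The mean was 11030 ± 6856 in DMSO and 7229 ± 3133 with SKI-II, and the log2 fold change was -0.61 with a 95% interval of -1.51 to 0.29 and an adjusted p of 0.266. That interval holds values from a strong fall to a slight rise. Without DMSO replicate 3 the log2 fold change was 0.03 (adjusted p of 0.947), and without both libraries of replicate 3 it was -0.37 (0.128). Txnip was called lower with the replicate number as a block in the fit, at -0.53 (0.0121). It was also called lower without the filter on low counts, at the same -0.61 (0.00117). The fit without the filter also gave Srxn1 an adjusted p of 3.25e-75, against 0.000146 in the main fit. Why the p-values of that fit differ so was not tested. Arrdc4, the closest relative of Txnip and named here after its values were seen, had 69.93, 85.92 and 161.4 normalized counts in DMSO against 127.6, 99.24 and 154.8 with SKI-II. Replicate 3 was the highest of its group for Arrdc4 too, and the adjusted p of its change was 0.559.

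The log2 ratio of Txnip to Txn1, inhibitor to target, per kilobase of exon was -0.99, -0.89 and 0.36 in DMSO against -1.25, -0.92 and 0.13 with SKI-II. The groups overlapped, the means differed by -0.17 and the exact permutation p was 0.6. The difference turned to 0.26 without DMSO replicate 3 and to 0.11 without SKI-II replicate 1. With Txnip included, replicate 3 held the highest value of 8 of the 10 members in DMSO and of 6 of the 10 in SKI-II. Gm15441, an antisense gene that shares 606 exonic bases with Txnip, had 70 counts over the 6 libraries.

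**Figure D1:**
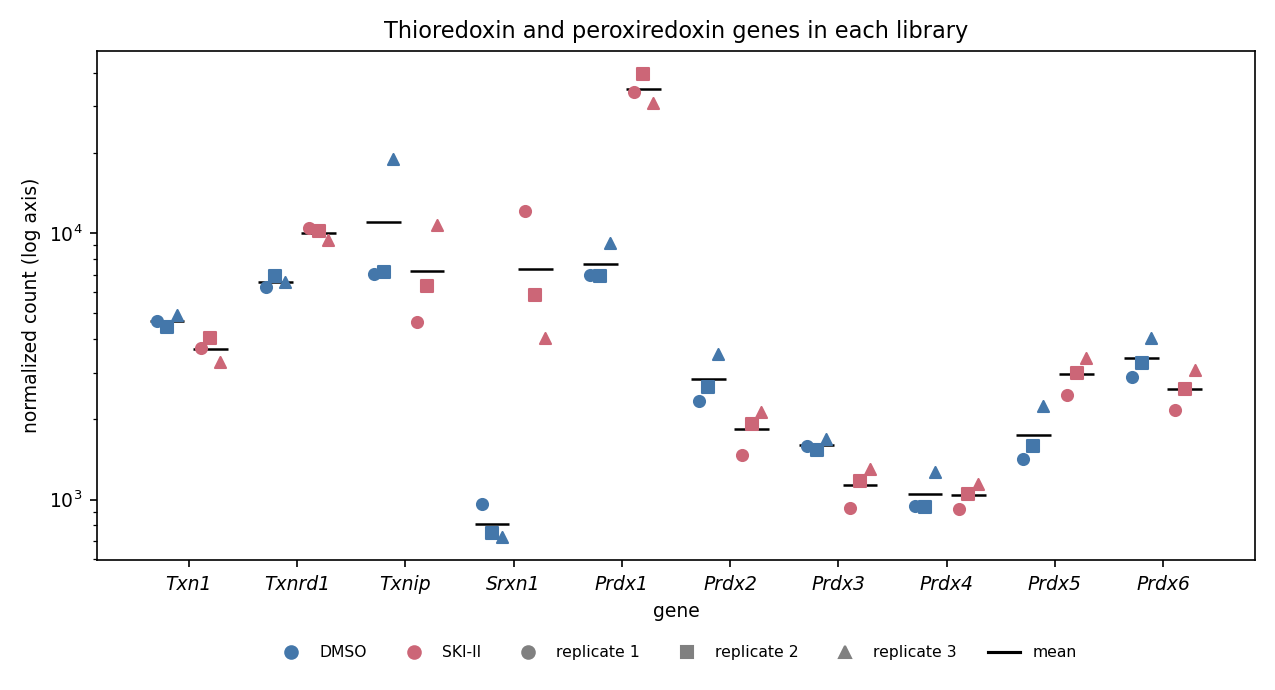
Normalized counts of each of the 10 members on a log axis, with 1 point per library (DMSO blue, SKI-II red, symbol shape by replicate number) and a bar at each group's mean. Srxn1 and Prdx1 separate widely, Txnrd1 and Prdx5 by less, and in Txnip the DMSO library at 18946 stands above the other DMSO libraries.

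Srxn1 (ENSMUSG00000032802, chr2:152105516-152111376 on the plus strand) encodes sulfiredoxin, the repair enzyme for overoxidized peroxiredoxins. It had 964.5, 751.8 and 724.8 normalized counts in DMSO against 12164, 5888 and 4028 with SKI-II. All 3 SKI-II libraries were several times above the DMSO libraries, but they differed among themselves, the highest being 3.02 times the lowest. The 95% interval of the log2 fold change, 2.43 to 3.92, was correspondingly wide, around 3.18 with a standard error of 0.33 and an adjusted p of 0.000146. Leaving out each library in turn gave 2.60 to 3.47. Of all genes tested, 0.872% had a larger log2 fold change.

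Prdx1 (ENSMUSG00000028691, chr4:116685544-116700822 on the plus strand) encodes an abundant cytosolic 2-Cys peroxiredoxin. Its normalized counts were 6989, 6918 and 9180 in DMSO against 33998, 39630 and 30821 with SKI-II. The lowest SKI-II library stood far above the highest DMSO library. The log2 fold change was 2.18 with a standard error of 0.17 and an adjusted p of 2.42e-05, and 1.98% of genes tested had a larger one. Leaving out each library gave 2.08 to 2.32. Counts from near-identical copies could be split with Prdx1, but its 3 annotated copies held counts equal to 0.214% of its own.

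The other peroxiredoxins of the typical 2-Cys class did not follow Prdx1. Prdx2 (ENSMUSG00000005161, chr8:84969587-84974834 on the plus strand), the other cytosolic enzyme, had 2342, 2646 and 3522 normalized counts in DMSO against 1466, 1921 and 2131 with SKI-II. The groups did not overlap, and the lowest DMSO library and the highest SKI-II library lay close together. The log2 fold change was -0.62 with a standard error of 0.18 and an adjusted p of 0.0224. The call was lost without DMSO replicate 3 (log2 fold change of -0.44, adjusted p of 0.0655), without SKI-II replicate 1 (-0.49, 0.072) and without SKI-II replicate 2 (-0.65, 0.0571). Prdx2 shares 177 exonic bases with Rnaseh2a and 173 with Junb, both on the opposite strand, and the strand setting of the counting is not given in the sources used here. Those neighbours moved apart, with log2 fold changes of -0.64 for Rnaseh2a (adjusted p of 0.00496) and 0.59 for Junb (0.0344). The shared bases are 5.8% and 5.7% of the exons of Prdx2, and reads on them cannot be told apart.

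Prdx3 (ENSMUSG00000024997, chr19:60864051-60874556 on the minus strand) encodes the mitochondrial 2-Cys enzyme. It had 1592, 1531 and 1685 normalized counts in DMSO against 931.0, 1172 and 1304 with SKI-II. Each SKI-II library was below each DMSO library, and the DMSO libraries were tight. The mean fell from 1603 ± 77.5 to 1136 ± 189, a log2 fold change of -0.50 with a standard error of 0.14 and an adjusted p of 0.0202. The call was lost without DMSO replicate 2 (adjusted p of 0.0525) and without SKI-II replicate 2 (0.0553). Mitochondrially encoded transcripts, by contrast, took a larger share of the counts in every SKI-II library than in any DMSO library.

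Prdx4 (ENSMUSG00000025289, chrX:155323918-155340754 on the minus strand), the 2-Cys enzyme of the endoplasmic reticulum and secretory pathway, had 943.1, 936.3 and 1275 normalized counts in DMSO against 918.6, 1053 and 1145 with SKI-II. The groups overlapped almost fully. The log2 fold change was -0.02 with a 95% interval of -0.37 to 0.33 and an adjusted p of 0.943. The interval leaves room for changes up to about the size of that of Txn1.

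Prdx5 (ENSMUSG00000024953, chr19:6906697-6910106 on the minus strand), the atypical 2-Cys enzyme found in mitochondria, peroxisomes and cytosol, had 1423, 1595 and 2247 normalized counts in DMSO against 2467, 2998 and 3408 with SKI-II. The groups did not overlap, with DMSO replicate 3 close below SKI-II replicate 1. The log2 fold change was 0.75 with a standard error of 0.19 and an adjusted p of 0.0102. It was 0.68, with an adjusted p of 0.0534, without DMSO replicate 2. Trmt112, on the opposite strand, shares 409 exonic bases, 19.1% of the exons of Prdx5, and it went the other way, with a log2 fold change of -0.37 and an adjusted p of 0.028.

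Prdx6 (ENSMUSG00000026701, chr1:161240112-161251219 on the minus strand) is the 1-Cys enzyme, which is reduced through glutathione and also acts as a phospholipase. It had 2886, 3252 and 4034 normalized counts in DMSO against 2176, 2603 and 3058 with SKI-II. The highest SKI-II library lay above the lowest DMSO library. The log2 fold change was -0.38 with a 95% interval of -0.74 to -0.01 and an adjusted p of 0.0992. It passed the threshold without DMSO replicate 1 (adjusted p of 0.0411) and without SKI-II replicate 3 (0.0464). It also passed with the replicate number as a block in the fit (0.0128).

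**Figure D2:**
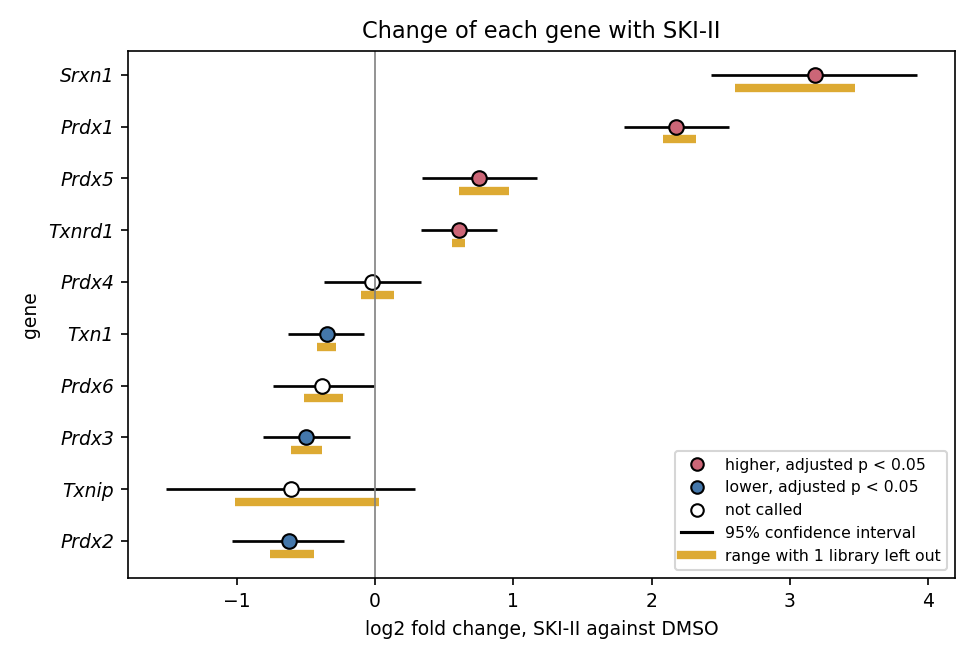
Log2 fold change of each member, SKI-II against DMSO, from edgeR's quasi-likelihood fit on all 6 libraries, with its 95% interval as a line and, under it, a yellow bar for the range with 1 library left out; red is higher, blue lower and white not called. Srxn1 at 3.18 and Prdx1 at 2.18 lie beyond 1, and the intervals of Prdx4 and Txnip span 0.

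Per length, the order of the members' levels changed between the conditions. In DMSO, Txn1 had the highest mean at 923.4 ± 63.3 TPM, followed by Txnip at 705.1 ± 369 TPM and Prdx1 at 518.6 ± 41.2 TPM. Prdx3 (224 ± 14.4), Txnrd1 (192.3 ± 17.2), Prdx2 (190.1 ± 22.8), Prdx5 (167.3 ± 25.2), Prdx6 (144.6 ± 11.4) and Prdx4 (102.3 ± 9.67 TPM) followed. From Txnrd1 down to Prdx6, each overlapped its neighbour within 1 SD, and Prdx3 overlapped Prdx2. The SD of Txnip spans the levels of both Prdx1 and Txn1, so the order of Txnip among these is not settled. With the length of each gene's principal transcript in place of all merged exons, the order of the peroxiredoxins below Prdx1 turned in DMSO, with mean shares of their summed level of 17.4% for Prdx2, 14.1% for Prdx6, 13.7% for Prdx5, 10.9% for Prdx3 and 10.5% for Prdx4. The log2 ratio of Txnrd1 to Txn1 in DMSO was then -1.26 in place of -2.27, so the places of Prdx3 and Txnrd1 rest on the length used. In SKI-II, Prdx1 led at 2334 ± 357 TPM. The lowest Prdx1 library, at 1963 TPM, was above the highest library of Txn1, at 789.2 TPM. Srxn1 had the lowest DMSO mean of the 10, at 60.21 ± 14.5 TPM, and stood at 539.5 ± 332 TPM in SKI-II, a spread that takes in the mean of Txnip (465.3 ± 180 TPM). Prdx2, Prdx4 and Prdx6 lay at 122.2 ± 18, 100.1 ± 6.88 and 110.2 ± 13.8 TPM in SKI-II, and these neighbours did not differ beyond their spread.

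The makeup of the peroxiredoxin pool was compared within each library, where library scaling cancels. Prdx1 made up 39.2%, 37.6% and 38.6% of the summed level of Prdx1 to Prdx6 per kilobase in DMSO against 78.0%, 77.1% and 69.9% with SKI-II. Its mean share went from 38.5% ± 0.815 to 75.0% ± 4.42. The shares of the other 5 were all lower in every SKI-II library than in any DMSO library. Prdx3 went from 16.7% to 5.06%, Prdx2 from 14.1% to 3.97%, Prdx6 from 10.7% to 3.59% and Prdx4 from 7.59% to 3.25%. The sizes of these falls depend on the length used. Without length (raw counts) the difference was -6.30 percentage points for Prdx3, against -11.7 per kilobase, and -12.6 for Prdx6, against -7.15, and with the principal transcript's length that of Prdx3 was -7.35. No order among the falls is read from them. Prdx5 kept the largest remainder, from 12.4% to 9.12%, although its own counts rose. Each of the 6 shares had an exact two-sided permutation p of 0.1, the smallest possible here, and 0.1 after adjustment over 6. Since shares sum to the whole, a higher share of Prdx1 lowers the rest.

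The transcript of the repair enzyme was also set against those of its substrates. The log2 ratio of Srxn1 to the summed level of Prdx1 to Prdx4, per kilobase, was -3.75, -4.12 and -4.52 in DMSO against -1.56, -2.84 and -3.10 with SKI-II. The groups did not overlap, and the means, -4.13 ± 0.39 and -2.50 ± 0.82, differed by 1.63 on the log2 scale. The exact permutation p was 0.1 (0.15 after adjustment over 3 ratios).

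**Figure D3:**
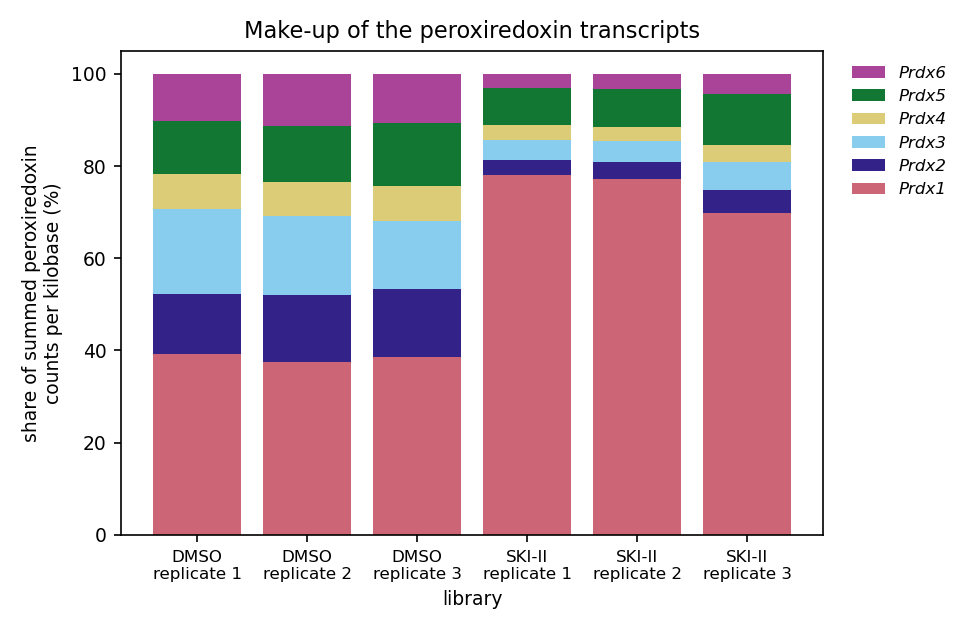
Share of each peroxiredoxin in the summed level of Prdx1 to Prdx6, in percent of counts per kilobase of exon, stacked for each of the 6 libraries. Prdx1 takes 37.6% to 39.2% in the DMSO libraries and 69.9% to 78.0% in the SKI-II libraries.

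The neighbours of the system were read from 7 lists of 50 other genes in all. Among the other thioredoxin-fold proteins and reductases, 2 of 7 rose, 2 fell and 3 did not pass. Txnrd2, the mitochondrial reductase, fell (log2 fold change of -0.73, adjusted p of 0.00238), unlike cytosolic Txnrd1, and nucleoredoxin, Nxn, fell by 2.26 (0.00109) from 106.5 to 22.54 normalized counts on average. Txndc9 rose by 0.78 (0.00538), and Txnrd3 rose by 0.63 (0.0433), a call lost without any one of DMSO replicates 2 and 3 and SKI-II replicates 1 and 2 (adjusted p of 0.104 to 0.164), without both libraries of replicate 3 (0.0708) and with library size alone (0.0623). Mitochondrial Txn2 had a log2 fold change of 0.39 and did not pass (0.0564). It passed without DMSO replicate 3 (0.0125), without both libraries of replicate 3 (0.0219), with library size alone (0.0286) and with at least 10 counts in every library (0.0419). It is named outside the rule for other genes, after its values were seen.

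Arrestin-domain relatives of Txnip and the Mondo-Mlx factors, which bind carbohydrate response elements, were split. Of 6 tested out of 8, 2 rose, 1 fell and 3 did not pass. Arrdc3 rose by 1.07 (adjusted p of 0.00353) and Arrdc2 fell by 1.44 (0.00272). Mlx, the common partner of the Mondo factors, rose by 0.49 (0.0185), a call lost without DMSO replicate 2 (0.0823) or 3 (0.0532) or SKI-II replicate 1 (0.0559) or 2 (0.083). Mlxipl had 0 counts in all 6 libraries.

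Proteins that thioredoxin reduces or binds went both ways. Both subunits of ribonucleotide reductase, which makes deoxynucleotides and draws its electrons from thioredoxin or glutaredoxin, fell, with log2 fold changes of -2.61 for Rrm2 (adjusted p of 1.5e-05) and -2.35 for Rrm1 (8.7e-06). Rrm2b, the p53-induced small subunit, rose by 0.78 (0.00231), and Map3k5, the kinase ASK1 that reduced thioredoxin holds inactive, rose by 1.33 (0.000137). In all, 2 of the 7 tested rose, 3 fell and 2 did not pass. The sestrins, stress-induced proteins first linked to peroxiredoxin repair, had 2 of 3 genes tested. Sesn2 rose by 0.64 (0.00464) and Sesn1 fell by 0.89 (0.00174).

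Other removers of peroxide and superoxide also went both ways, with 1 of 5 tested higher, 2 lower and 2 not passing. Catalase, Cat, had 1722, 1951 and 2042 normalized counts in DMSO against 7114, 6762 and 5772 with SKI-II, and its log2 fold change was 1.78 with an adjusted p of 1.64e-05. The groups lay well apart. Gpx1, the cytosolic glutathione peroxidase, fell, with a log2 fold change of -1.01 (0.00432), and Sod2, the mitochondrial superoxide dismutase, fell by 0.92 (0.00255). Without DMSO replicate 3, 2 genes of this list were higher, the second being Gpx4 (0.0229). Of 4 glutaredoxins, 0 rose, 1 fell and 3 did not pass, and the one that fell was Glrx, by 0.65 (0.0108). Without DMSO replicate 1, or without SKI-II replicate 3, 2 glutaredoxins were lower.

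Txnrd1 carries selenocysteine, and of the 9 genes listed for its insertion, all tested, 3 rose, 2 fell and 4 did not pass. Scly, which recycles selenium from selenocysteine, rose by 0.91 (adjusted p of 0.00105) and Sephs1 fell by 0.65 (0.00199). The calls of Secisbp2 (0.68, 0.0485), which binds the insertion element, of Sepsecs (0.54, 0.017), the final enzyme of the tRNA's synthesis, and of Sephs2 (-0.45, 0.0415), the selenophosphate synthetase, depended on single libraries. Secisbp2 was lost without DMSO replicate 2 or 3 or SKI-II replicate 1 or 2 (adjusted p of 0.106 to 0.163), with library size alone (0.0805) and with at least 10 counts in every library (0.0537). Sepsecs was lost without DMSO replicate 1 (0.0564) or SKI-II replicate 2 (0.0718). Sephs2 was lost without any library other than DMSO replicate 3 (0.0515 to 0.121), and with library size alone (0.0605).

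**Figure D4:**
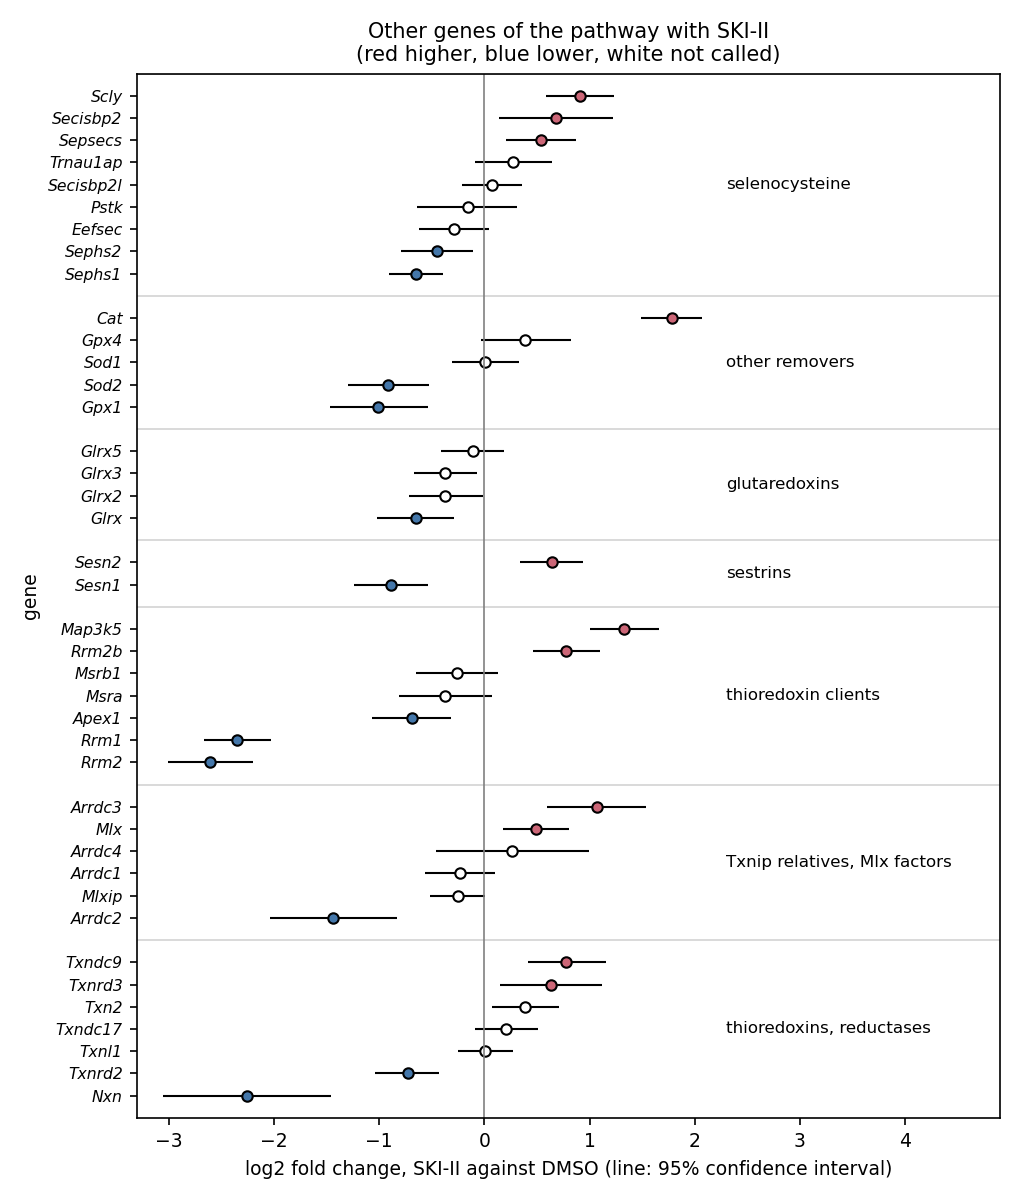
Log2 fold change, SKI-II against DMSO, of the tested genes of the 7 other lists, 1 point per gene with its 95% interval, red where higher and blue where lower at an adjusted p below 0.05 and white where not called. Among the points plotted, Cat at 1.78 is the highest and Rrm2 at -2.61 the lowest, and called genes lie on both sides of 0 in every list except the glutaredoxins.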

How the data were processed

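RNA from RAW264.7 cells was sequenced in 3 DMSO and 3 SKI-II libraries, grouped by the treatment label. According to the submitters' processing notes, reads were trimmed with Trimmomatic 0.36, mapped with STAR 2.5.2b and counted with featureCounts of Subread 1.5.2. The authors deposited raw read counts per Ensembl gene, and all 6 columns were used, with 0 other per-sample columns. Strand setting, genome build and annotation: not given in the sources used here. Of 49315 identifiers, 49056 were named. Positions and exon lengths came from GENCODE M21 (GRCm38).

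Groups were compared with edgeR 4.0.16 (R 4.3.3) and its quasi-likelihood test, with TMM scaling, filterByExpr (minimum count 10, minimum total 15) with p-values adjusted after Benjamini-Hochberg over 12274 genes. Normalized counts are counts scaled to the mean effective library size of 16042438. Within-library shares and ratios were compared over libraries with exact permutation tests (scipy 1.17.1). Pairs of libraries within a group differed by more than sampling noise, so none was taken for a library deposited a second time. The fits were tested on simulated data.

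The genes named are the 10 members and, in each other list, the called genes with the largest change, up to 3 higher and 2 lower. Arrdc4, Txn2, Gpx4, Mlxipl and the genes that overlap a member were named outside this rule. The members and lists were chosen with earlier results of these data known. Alternatives were RLE scaling, library size alone, no filter, at least 10 counts in every library, DESeq2 1.42.0, limma-voom (limma 3.58.1), a prior count of 2, glmTreat, the replicate number as a block, each library left out, shares and ratios from raw counts, and 2 added after seeing the data, without both libraries of replicate 3 and with the length of the APPRIS principal transcript. Figures were drawn with matplotlib 3.10.9.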

Additional observations from a re-analysis of the deposited data

How the results depend on the processing

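The calls and directions of Txnrd1, Srxn1 and Prdx1 held in all 15 alternatives, with log2 fold changes of 0.56 to 0.65, 2.60 to 3.47 and 2.08 to 2.40. The log2 fold change of Prdx4 turned to 0.14 without DMSO replicate 3, 0.06 without SKI-II replicate 1 and 0.07 without both libraries of replicate 3, an alternative chosen after seeing the data, and ranged from -0.10 to 0.14 with one library left out. That of Txnip was -1.01 to 0.03 with one left out, and 0.03 without DMSO replicate 3. The log2 ratio of Txnip to Txn1 turned to 0.26 without DMSO replicate 3, and to 0.11 when SKI-II replicate 1 was absent, in a range of -0.58 to 0.26. With library size alone, 2 glutaredoxins and 1 selenocysteine gene were lower and 2 selenocysteine genes higher, with Txnrd3, Secisbp2 and Sephs2 no longer called, and without a filter, or without both libraries of replicate 3, 2 other removers were higher. With glmTreat, 341 genes of all were above a log2 fold change of 1 and 381 below -1, since that test asks for a change past 1. Leaving out each library gave 0 to 3 members lower, 1 to 2 other thioredoxin-fold genes higher, 1 to 2 arrestin relatives higher, 1 to 2 glutaredoxins lower, 1 to 2 other removers higher, and 1 to 3 selenocysteine genes higher and 1 to 2 lower. Members higher numbered 3 to 4. From raw counts, without length, the shares of Prdx2, Prdx3, Prdx4 and Prdx6 differed by -11.2, -6.30, -3.38 and -12.6 percentage points between the groups, and with the length of the principal transcript, chosen after seeing the data, by -12.1, -7.35, -5.66 and -9.02. Apart from the changes of length, filter, test and samples named here, the cause was not tested. Whether the replicate numbers pair the libraries is not settled. In their deviations from the group means, same-numbered libraries correlated at 0.246, 0.00994 and 0.458. The value for replicate 3 was the highest of any DMSO library with any SKI-II library. DMSO replicate 1, however, correlated best with SKI-II replicate 2 (0.296). The main fit used no replicate block. With the replicate block, 5 members were lower, the added genes being Prdx6 (adjusted p of 0.0128) and Txnip (0.0121), 3 glutaredoxins were lower and 2 other removers were higher, and Txn2 was called (0.0141), while over all genes the block called 2765 higher and 2819 lower, against 2255 and 2413. Without the filter, Txnip was called (0.00117), in a fit that gave Srxn1 an adjusted p of 3.25e-75. With 3 libraries per group, changes as small as that of Txn1 lay at the limit of what the spread allowed.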
